A study of Mus musculus with 8 samples.

Results

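The 9 genes described here encode alpha-1 subunits of voltage-gated calcium channels: Cacna1a, Cacna1b, Cacna1c, Cacna1d, Cacna1e, Cacna1f, Cacna1g, Cacna1h and Cacna1i. They were chosen by gene symbol among the 17500 genes of the deposited table, with no measured value used, and all 9 passed the filter on low counts. The deposited gene descriptions name each of them as an alpha 1 subunit of a voltage-dependent calcium channel. Retinal RNA came from 4 Rbfox2-/- mice labelled as an Rbfox2 knockdown (M893, M901, M902 and M909) and from 4 controls (M833, M894, M896 and M898), with 1 poly(A)-selected library per mouse. The comparison asks which transcripts differ in the retina when the splicing regulator Rbfox2 is reduced in the adult animal.

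All mice were on the C57BL/6J background and 6 months old, and whole retinas were taken in the morning. By the study's methods, Rbfox2-/- animals carried Rbfox2 fl/fl alleles and a transgene for a Cre recombinase that tamoxifen activates, and they were examined 4 months after the drug had been given. Controls were age-matched heterozygous Rbfox2 fl/+ mice, so that they also carried 1 floxed allele. The labels give tamoxifen for 4 months to every sample, controls included, and whether the controls received the drug was not settled here. Recombination is described for ganglion cells, amacrine cells and some cells at the outer edge of the inner nuclear layer, whereas the RNA came from all retinal cells, so that fewer cells of a type and less RNA per cell cannot be told apart in these values. No label or method text used here gives the sex of the animals, and the Xist values below bear on it.

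The alpha-1 subunit forms the pore of the channel and senses voltage, while auxiliary alpha-2/delta, beta and gamma subunits set its trafficking and gating. L-type channels (Cacna1c, Cacna1d and Cacna1f, and Cacna1s of skeletal muscle) give long-lasting currents, P/Q-, N- and R-type channels (Cacna1a, Cacna1b and Cacna1e) drive transmitter release at most central synapses, and T-type channels (Cacna1g, Cacna1h and Cacna1i) open near the resting potential. In the retina, photoreceptors release glutamate at ribbon synapses through the channel encoded by Cacna1f, whose loss causes congenital stationary night blindness. Several of these transcripts are alternatively spliced, and Rbfox proteins regulate splicing of some of them in neurons. Counts per gene do not show which exons were used, so only the summed level of each gene was compared here.

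Each library held between 160630226 and 211283591 counts on genes. The least covered member, Cacna1e, had between 1811 and 2863 counts per mouse and the most covered, Cacna1f, between 63039 and 98493. For both, counting error was small beside the spread between mice. It was not small for Cacna1c in Rbfox2-/- retinas, with 3334 to 4111 counts and an SD of 0.958% of the mean. Rbfox2 itself (chr15:77078990-77307004, minus strand) was at 144, 149.8, 157 and 148 CPM (counts scaled to a common normalized library size) in the 4 controls and at 53.9, 58.9, 53.6 and 59.4 CPM in the 4 Rbfox2-/- mice, a log2 fold change of -1.41 (SE 0.046). M901 and M902 stood apart on the leading principal component (40.5% of the variance), and Xist, an RNA made from the inactive X chromosome, was at 1440 and 1739 CPM in these 2 retinas and between 1.71 and 2.22 CPM in the other 6. By this RNA M901 and M902 read as female and the other 6 mice, all controls among them, as male. Sex was then not balanced between the groups. M833 stood apart in markers of ganglion cells, whose 6 genes summed to 444 CPM there and to between 579 and 766 CPM in the other 7 mice. For the alpha-1 genes, values without these mice are given below where they move by more than 1.5 times, or where Xist bears on a gene by its chromosome. Partner and marker genes are given with all mice in, so that their dependence on these mice is not shown.

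Levels of different genes were compared per length, as the FPKM values (fragments scaled by gene length and library size) that the authors deposited. Cacna1f was the most abundant alpha-1 transcript, at a mean over 8 mice of 75.2 FPKM (range 59.6 to 83.9). The T-type genes Cacna1h, at 29.1 FPKM (26.0 to 33.04), and Cacna1g, at 16.8 (16.3 to 18.4), came next. Photoreceptor and T-type channel genes thus led the family in whole retina. Cacna1a was at 10.8 FPKM (9.45 to 12.4), Cacna1i at 8.12 (7.55 to 8.51) and Cacna1d at 7.93 (7.17 to 8.70). Cacna1b was at 5.48 FPKM (5.09 to 5.98), Cacna1c, the main L-type gene of heart and brain, at 1.60 (1.55 to 1.69) and Cacna1e at 0.977 (0.839 to 1.13). The lowest 2 genes lay more than an order of magnitude below Cacna1f. Rod photoreceptors are the most numerous cells of the mouse retina, and an average over the tissue does not give the level in any 1 cell type.

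**Figure D1:**
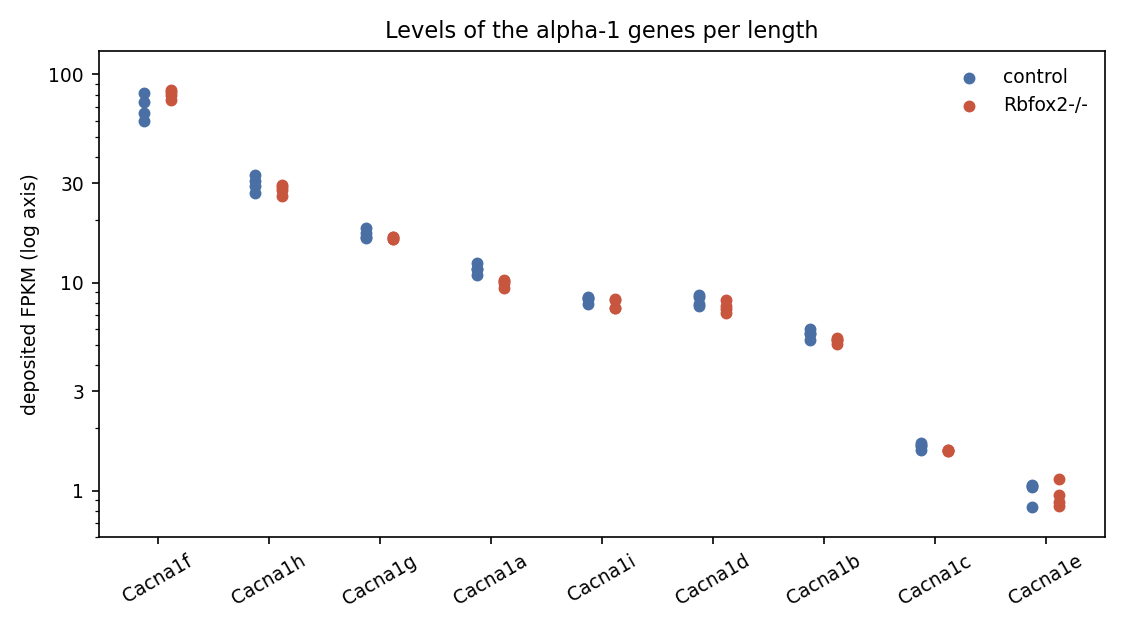
Deposited FPKM of each alpha-1 gene in each retina, on a logarithmic axis, with genes in order of their mean and 1 point per mouse (4 control, 4 Rbfox2-/-). Cacna1f lies above all others at 59.6 to 83.9 FPKM, and Cacna1i and Cacna1d occupy the same range.

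In this order each gene was compared with the next within mice, which gave 8 neighbouring pairs. In 7 pairs the gene with the larger mean was higher in 8 of 8 mice, and by an exact sign-flip permutation test (two-sided) each gave p = 0.0078, the smallest value that 8 mice allow, or 0.0089 after Benjamini-Hochberg adjustment over the 8 pairs. The step from Cacna1f to Cacna1h was a factor of 2.58 (range over mice 2.21 to 2.90), and the widest step, from Cacna1b to Cacna1c, a factor of 3.42 (3.29 to 3.60). Cacna1i and Cacna1d were the exception, with Cacna1i higher in 4 of 8 mice, a ratio of 1.03 (0.912 to 1.17) and an exact permutation p of 0.398. The order also depends on the length assigned to each gene. With the union of annotated exons as the length, Cacna1i (8.07 FPKM) came before Cacna1a (7.37 FPKM), in 6 of 8 mice (exact permutation test, adjusted p = 0.0357), and Cacna1d and Cacna1b no longer differed beyond their spread (exact permutation p = 0.156).

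Rbfox proteins bind RNA at GCAUG, most strongly with a U before it. The DNA spelling of that hexamer, TGCATG, was searched on the sense strand of 1 spliced transcript per gene (GENCODE M21, GRCm38), and the introns, where most regulated splice sites are bound, were not searched here. The hexamer occurs in 52.4% of 14887 transcripts of all kinds and more often in long ones. Cacna1a and Cacna1f, the members with the largest differences between groups below, each hold it once. The site of Cacna1a lies in the 3′ UTR, in exon 47 of 47 (chr8:84640194-84640199, plus strand), and that of Cacna1f in coding sequence of exon 48 of 48 (chrX:7634966-7634971, plus strand). The hexamer is in capitals, with 10 bases on each side:
Cacna1a: tgtgaaatatTGCATGacattaaaaa
Cacna1f: agattgcagaTGCATGtcacctgacc

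The other members hold 6 copies in Cacna1e, 4 each in Cacna1b, Cacna1c and Cacna1d, 2 each in Cacna1h and Cacna1i and 1 in Cacna1g, and Cacna1s holds 0. Among transcripts within 20% of the length of Cacna1a, 87.9% hold at least 1 copy, and the share is 80.5% for Cacna1f, so that holding the hexamer does not set these members apart. The T-type genes carry it within a like stretch of coding sequence. The windows of Cacna1g (exon 11, chr11:94443204-94443209, minus strand) and Cacna1i (exon 12, chr15:80369733-80369738, plus strand) are identical over 26 bases, and that of Cacna1h (exon 12, chr17:25388591-25388596, minus strand) differs from them at 1 base:
Cacna1g: ggccaccttcTGCATGctgctcatgc
Cacna1i: ggccaccttcTGCATGctgctcatgc
Cacna1h: ggccaccttcTGCATGctgctaatgc

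A similar pair occurs among the L-type genes, in coding exon 41 of Cacna1c (chr6:118603961-118603966, minus strand) and coding exon 40 of Cacna1d (chr14:30052536-30052541, minus strand), where the windows differ at 4 of 26 bases. Windows that differed at 4 or fewer of 26 bases between members are shown, and a pair in Cacna1b and Cacna1h that differed at 7 is not. All are matches of letters and not measured binding sites:
Cacna1c: ttgcgcacctTGCATGacattgggcc
Cacna1d: ttaaggacccTGCATGacattgggcc

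Between the groups, 0 of the 9 alpha-1 genes passed an FDR of 0.05 by edgeR's quasi-likelihood test, where 11 of 16797 genes tested did (0.0655%). At an unadjusted p under 0.05 there were 2, Cacna1a on the lower side and Cacna1f on the higher side, where 13.3% of all genes fell under that limit (6.87% lower and 6.42% higher in Rbfox2-/- retinas). DESeq2 (2.74% of all genes called) and edgeR's likelihood ratio test (0.976%) each called 1 member, Cacna1a, and limma-voom called 0. The log2 fold changes of 8 of 9 members were below 0, against 49.3% of all genes, with a median of -0.055 against 0.0016 over all genes. The exception was Cacna1f.

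**Figure D2:**
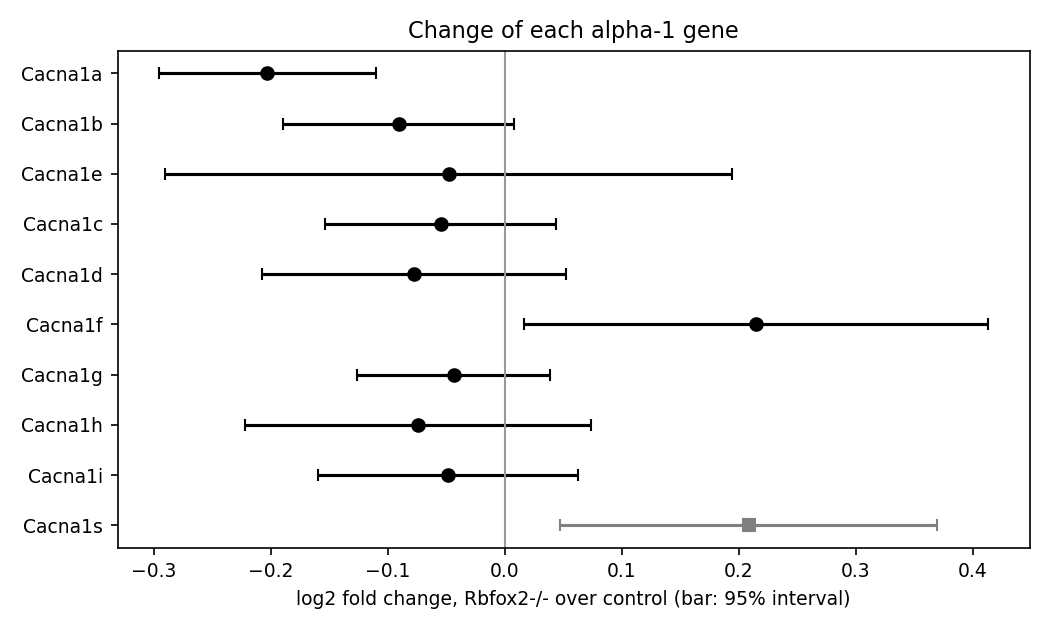
Log2 fold change of each alpha-1 gene, Rbfox2-/- over control (4 retinas each), with its 95% interval from edgeR's quasi-likelihood fit as a bar. The intervals of Cacna1a (below 0) and Cacna1f (above 0) leave out 0, as does that of Cacna1s, which is drawn in gray because it is not one of the 9 genes.

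Cacna1a (chr8:84388440-84640246, plus strand) encodes the pore of the P/Q-type channel, the main release channel of many central synapses. It was at 86.2, 89.3, 95.5 and 88.8 CPM in the controls (in the order M833, M894, M896, M898) and at 78.7, 78.8, 81.0 and 74.1 CPM in the Rbfox2-/- mice (M893, M901, M902, M909), and values below keep this order. All 4 Rbfox2-/- retinas lay below all 4 controls, which made it 1 of 9 members whose groups did not overlap, where 7.03% of all genes did not overlap in either direction and 3.39% with Rbfox2-/- below. The means were 89.9 ± 3.96 (SD, n = 4) and 78.2 ± 2.90 CPM (SD, n = 4), so that the Rbfox2-/- mean was 86.9% of the control mean. The log2 fold change was -0.20 (SE 0.042, 95% interval -0.30 to -0.11), or -13.1% with an interval from -18.5% to -7.36%. Its Benjamini-Hochberg adjusted p was 0.116 by the quasi-likelihood test of edgeR, 92nd in order of p, and 0.00303 by DESeq2 and 0.0350 by the likelihood ratio test, so the call depended on the test. Over all 17 alternatives the log2 fold change ran from -0.24 to -0.17 and the adjusted p from 0.00303 to 0.496, the highest without M901 and M902, when 2 Rbfox2-/- mice were left. An antisense transcript, Gm16183, overlaps exons of Cacna1a, and since no source used here states whether counting used strand, its reads cannot be told apart from those of Cacna1a.

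Among the other release channels, Cacna1b (N type, chr2:24603887-24763152, minus strand) was at 55.7, 57.0, 55.0 and 50.5 CPM in controls and 50.8, 51.6, 49.7 and 52.9 CPM in Rbfox2-/- retinas. The control M898 fell among the Rbfox2-/- values, and the log2 fold change was -0.09 (SE 0.044, adjusted p = 0.409 by edgeR's quasi-likelihood test). It was among the genes at an unadjusted p under 0.05 without M898, and also without M909. Cacna1e (R type, chr1:154390731-154884501, minus strand), the least abundant member, was at 13.8, 13.2, 13.0 and 10.5 CPM in controls and 10.6, 12.3, 11.4 and 14.5 CPM in Rbfox2-/- retinas. For Cacna1e 1 mouse of each group stood apart from its companions, M898 low and M909 high. Its log2 fold change was -0.05 (SE 0.11, adjusted p = 0.887 by the same test), and the interval, from -18.2% to 14.4%, was the widest of the 9. Without M893 the value was 0.01, on the other side of 0, and it was -0.01 without M833 and -0.01 without M901 and M902. All 3 genes of this group thus had a log2 fold change below 0 with all mice in, with a median of -0.09.

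**Figure D3:**
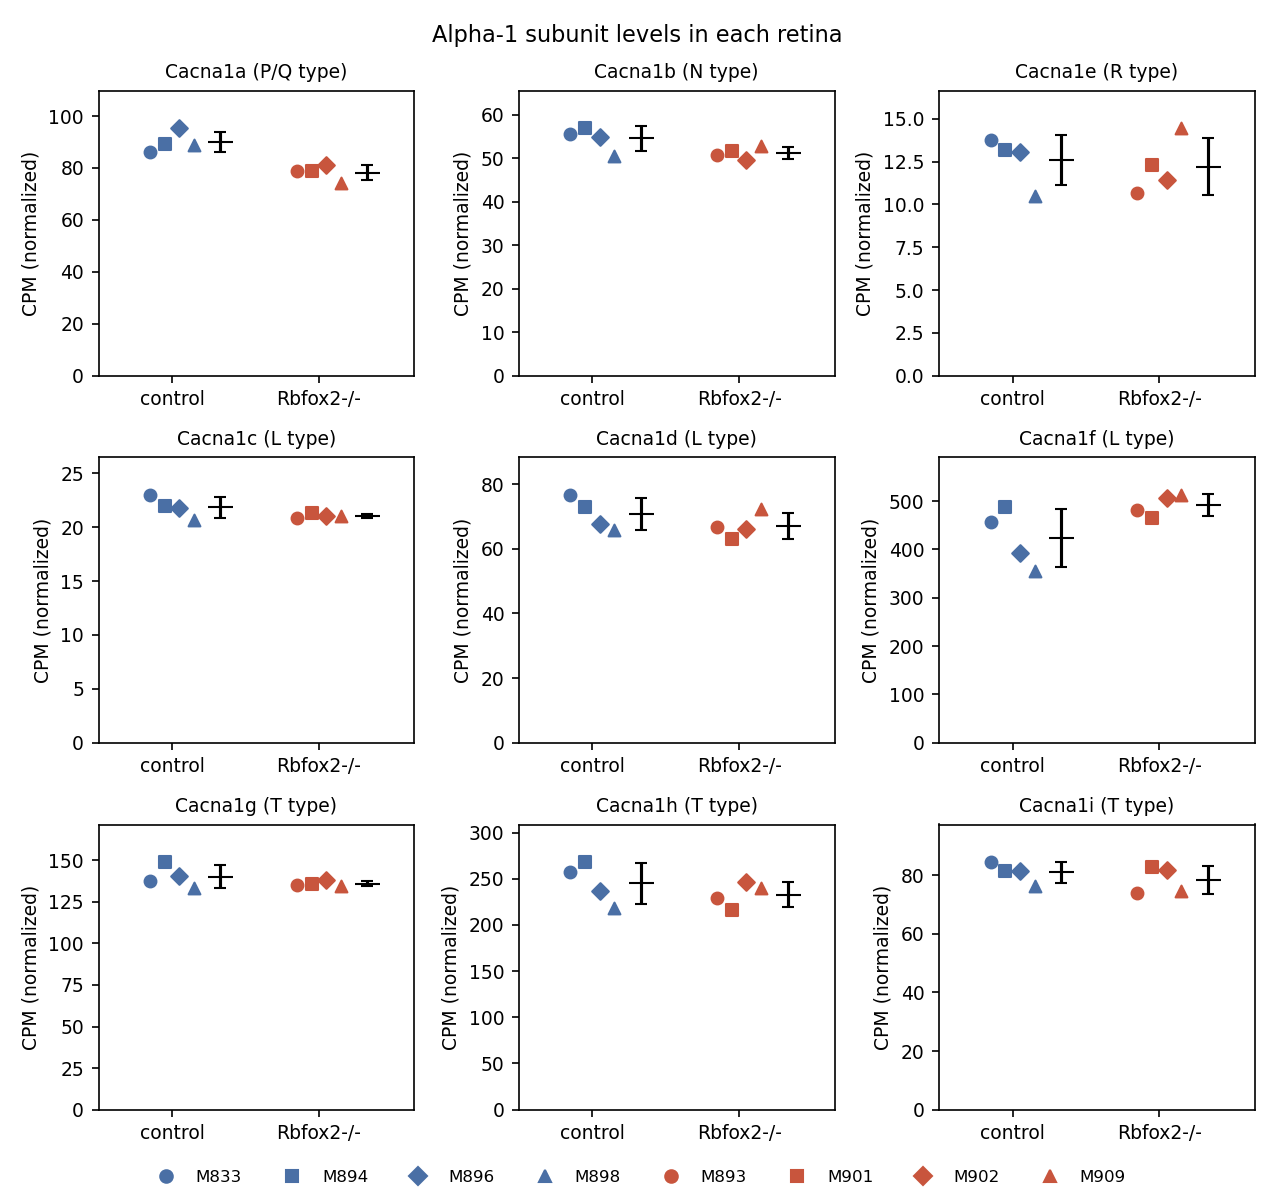
Normalized CPM of each alpha-1 gene in each of 8 retinas (points, 1 symbol per mouse), with the group mean and SD (n = 4) as bars and every axis starting at 0. The groups separate for Cacna1a (86.2 to 95.5 against 74.1 to 81.0 CPM) and overlap for the other 8 genes, and the control values of Cacna1f spread from 356 to 488 CPM.

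Cacna1f (chrX:7607083-7635196, plus strand) went the other way. It was at 456, 488, 393 and 356 CPM in the controls and at 482, 464, 506 and 513 CPM in the Rbfox2-/- mice. All 4 Rbfox2-/- values were above the control mean, but the groups overlapped, and only M902 and M909 were above every control. The control spread was the broadest of the family, at 423 ± 59.9 CPM (SD, n = 4) or 14.1% of the mean, against 491 ± 22.6 CPM (SD, n = 4) or 4.61% in Rbfox2-/- retinas. Its fitted log2 fold change was 0.21 (SE 0.089, 95% interval 0.02 to 0.41) and the adjusted p by edgeR's quasi-likelihood test was 0.352. Single controls moved it both ways, to 0.14 without M898 and to 0.29 without M894, and over the 17 alternatives the adjusted p ran from 0.180 to 0.873. Cacna1f lies on the X chromosome. Without M901 and M902, the mice with high Xist, the value was 0.23 (adjusted p = 0.873 by edgeR's quasi-likelihood test).

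Photoreceptor markers stood in the same direction as Cacna1f. Gnat1, the rod transducin, was at 13780 CPM in controls and 15762 CPM in Rbfox2-/- retinas without overlap (log2 fold change 0.19, SE 0.057, adjusted p = 0.236 by edgeR's quasi-likelihood test), and Sag, the rod arrestin, at 3987 and 4650 CPM with overlap (log2 fold change 0.22, SE 0.071, adjusted p = 0.264). The 6 cone markers summed to between 922 and 923 CPM in controls and between 983 and 1114 CPM in Rbfox2-/- retinas, and 5 of 6 were on the higher side. The same test called 0 of the 6 cone markers at an FDR of 0.05 (edgeR), and DESeq2 called 1 of them higher, the cone opsin gene Opn1sw, besides Gnat1 and Sag. Groups without overlap on the higher side, as for Gnat1, occurred for 3.64% of all genes. The part of the photoreceptor markers in the value of Cacna1f was not tested. Of 4 horizontal cell markers, only Calb1, a calcium buffer, fell past an FDR of 0.05, from 76.2 to 57.9 CPM (log2 fold change -0.40, SE 0.036, adjusted p = 0.00341 by edgeR's quasi-likelihood test). Calb1 made up most of the sum of the 4 markers, which was 99.6 to 106 CPM in controls and 81.6 to 85.6 CPM in Rbfox2-/- retinas. The transcription factors Onecut1 and Onecut2 had log2 fold changes of -0.13 and -0.20 and Lhx1 one of 0.18, so that the 4 did not go 1 way. Amacrine markers summed to 991 to 1085 CPM in controls and 985 to 1041 CPM in Rbfox2-/- retinas, bipolar markers to 1638 to 1766 and 1604 to 1681, and Müller glia markers to 4903 to 5413 and 4417 to 4939. Glul made up most of the Müller sum, at 3384 CPM in controls and 3002 CPM in Rbfox2-/- retinas. Of the 5 Müller markers 3 had log2 fold changes below 0 and 2 above. The part of any of these cell types in the value of Cacna1a was not tested.

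The other L-type genes were nearer to 0. Cacna1c (chr6:118587240-119196418, minus strand) was at 23.0, 22.01, 21.8 and 20.6 CPM in controls and at 20.8, 21.3, 21.0 and 21.0 CPM in Rbfox2-/- retinas, all 4 of which lay within the control range. Its log2 fold change was -0.05 (SE 0.044, interval -10.1% to 3.09%, adjusted p = 0.623 by edgeR's quasi-likelihood test). Cacna1d (chr14:30039939-30491455, minus strand), an L-type gene that opens at lower voltages than Cacna1c, was at 76.8, 72.9, 67.6 and 65.7 CPM and at 66.8, 63.0, 66.1 and 72.4 CPM. The groups overlapped, with the controls M833 and M894 highest, and the log2 fold change was -0.08 (SE 0.058, interval -13.4% to 3.70%, adjusted p = 0.596). It was -0.04 without M833, the control low in ganglion cell markers, whose part in it was not tested, and -0.03 without M901 and M902. Cacna1c was at -0.03 without M833. Chdh overlaps exons of Cacna1d on the other strand, at 4.93 CPM in controls and 4.56 CPM in Rbfox2-/- retinas, a small part of the Cacna1d level.

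T-type genes differed little between the groups. Cacna1g (chr11:94408391-94474198, minus strand) was at 138, 149, 141 and 133 CPM in controls and at 135, 135, 138 and 135 CPM in Rbfox2-/- retinas, all within the control range. Its log2 fold change was -0.04 (SE 0.037), and the interval from -8.38% to 2.75% was the narrowest of the 9. Cacna1h (chr17:25374285-25433783, minus strand) was at 257, 269, 237 and 218 CPM and at 229, 217, 247 and 239.8 CPM, with a log2 fold change of -0.07 (SE 0.066, interval -14.3% to 5.22%). M898 was the lowest control for both genes, as it was for Cacna1f. Cacna1i (chr15:80287238-80398279, plus strand), which lies 2.98 Mb from the floxed Rbfox2 gene, was at 84.6, 81.5, 81.3 and 76.2 CPM and at 73.7, 82.9, 81.9 and 74.4 CPM. The 4 Rbfox2-/- values of Cacna1i formed 2 pairs, with M901 and M902 among the controls and M893 and M909 below them all. With all 8 mice the log2 fold change was -0.05 (SE 0.050), without M833 it was -0.03, and without M901 and M902 it was -0.13 and under an unadjusted p of 0.05. The adjusted p-values of Cacna1g, Cacna1h and Cacna1i were 0.643, 0.663 and 0.715 by edgeR's quasi-likelihood test. A p above the threshold does not show that a gene was the same in both groups, and the intervals give the sizes that these 8 mice allow.

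As parts of the summed FPKM of the 9 genes, the shares of Cacna1f and Cacna1a stood apart between the groups. The sum itself was 154 ± 13.6 FPKM in controls and 158 ± 5.31 FPKM in Rbfox2-/- retinas (SD, n = 4 each). Cacna1f made up 46.9, 47.9, 44.0 and 43.2% of it in controls and 50.7, 49.96, 50.8 and 51.6% in Rbfox2-/- retinas. Cacna1a made up 6.90, 6.83, 8.32 and 8.40% in controls and 6.46, 6.62, 6.33 and 5.81% in Rbfox2-/- retinas. Neither set of shares overlapped between groups. Cacna1h held between 19.4 and 19.6% in all 4 controls and between 17.2 and 18.3% in Rbfox2-/- retinas, although its CPM values overlapped. Cacna1b held 3.52 to 3.87% in controls and 3.14 to 3.49% in Rbfox2-/- retinas, and the shares of the other 5 genes overlapped. Shares add up to a whole, so that a larger share of Cacna1f lowers those of the others, and they are given as a description with no test. By type, the L-type genes held 51.9 ± 2.06% in controls and 56.6 ± 0.805% in Rbfox2-/- retinas, the P/Q-, N- and R-type genes 11.98 ± 1.05% and 10.2 ± 0.393%, and the T-type genes 36.1 ± 1.02% and 33.2 ± 0.517% (SD, n = 4 each).

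**Figure D4:**
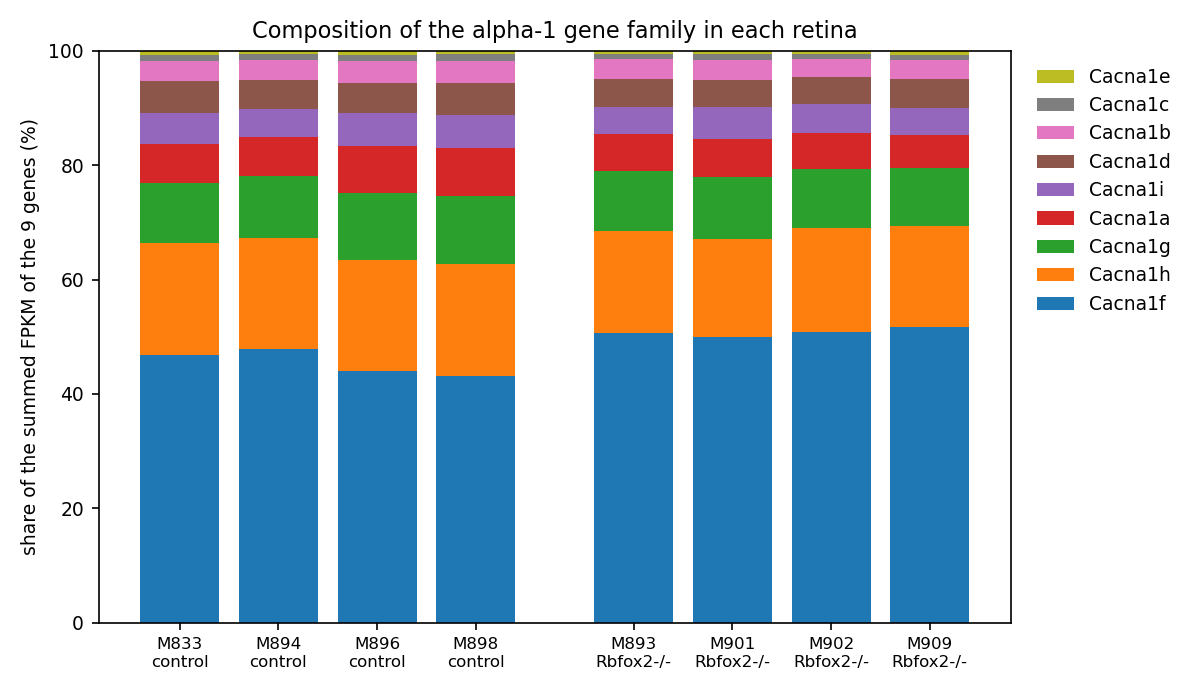
Share of the summed FPKM of the 9 alpha-1 genes taken by each gene in each retina, stacked to 100%. The lowest block, Cacna1f, takes 43.2 to 47.9% in the 4 controls and 49.96 to 51.6% in the 4 Rbfox2-/- retinas.

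The ratio of Cacna1f to Cacna1a within a retina needs no normalization between libraries. On the log2 scale it was 2.41, 2.45, 2.04 and 2.003 in controls and 2.61, 2.56, 2.65 and 2.79 in Rbfox2-/- retinas, with means of 2.23 ± 0.235 and 2.65 ± 0.100 (SD, n = 4 each). The lowest Rbfox2-/- ratio lay above the highest control ratio. The controls fell into pairs, M833 and M894 above M896 and M898. Because both genes were singled out for their fold changes, this ratio is a description with no test.

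Cacna1s, the L-type gene of skeletal muscle, completes the alpha-1 genes of the mouse but was not among the 9. It was at 41.4, 40.5, 40.9 and 32.9 CPM in controls and at 43.4, 47.9, 43.9 and 44.6 CPM in Rbfox2-/- retinas. The groups did not overlap, as for 3.64% of all genes on the higher side, with M898 far below the other controls. The log2 fold change was 0.21 (SE 0.072, adjusted p = 0.283 by edgeR's quasi-likelihood test) and 0.14 without M898. At 6.77 FPKM Cacna1s was between Cacna1d and Cacna1b in level. In CPM it ran from 32.9 to 47.9, while the 6 markers of skeletal muscle together summed to no more than 10.7 CPM in any retina. An antisense transcript, Gm37759, overlaps exons of Cacna1s. With the use of strand in counting not stated, its reads cannot be told apart from those of Cacna1s.

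Genes with the symbols of auxiliary subunits (Cacna2d, Cacnb and Cacng) were read from the same fit. The list goes by symbol, and not every Cacng product is a subunit of these channels. Of 15 genes tested (Cacng6 was not analysed here), 0 passed an FDR of 0.05 by edgeR's quasi-likelihood test and 2 were under an unadjusted p of 0.05, with 12 log2 fold changes below 0 and 3 above and a median of -0.03. Over all genes 13.3% were under that p, a share like that of this list, and 49.3% were below 0. The groups did not overlap for 1 gene of the list with Rbfox2-/- above and for 1 with Rbfox2-/- below, where the shares over all genes were 3.64% and 3.39%. Cacna2d4, the alpha-2/delta subunit of the photoreceptor channel, was at 549, 538, 506 and 501 CPM in controls and at 575, 584, 610.5 and 592 CPM in Rbfox2-/- retinas. All 4 Rbfox2-/- retinas were above all 4 controls, and the log2 fold change was 0.17 (SE 0.042, adjusted p = 0.178, beside 0.21 for Cacna1f), and Cacna2d4 was the 1 gene of this list that DESeq2 called at an FDR of 0.05, while the likelihood ratio test and limma-voom called 0. Cacnb4, a beta subunit of neuronal channels, was at 52.4, 49.0, 52.2 and 49.5 CPM against 47.1, 48.9, 46.7 and 47.7 CPM, without overlap but by a narrow margin (log2 fold change -0.09, SE 0.038, adjusted p = 0.344). Cacna2d1, another alpha-2/delta subunit, was at 63.7 CPM in controls and 59.4 CPM in Rbfox2-/- retinas with overlap between groups (log2 fold change -0.10, SE 0.054, adjusted p = 0.443). Cacnb2, the beta subunit of the photoreceptor channel, was at 217 and 214 CPM.

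Proteins that bind or anchor the channels gave a similar picture. Of 27 tested (Tspoap1 was not analysed here), 0 passed an FDR of 0.05 by edgeR's quasi-likelihood test and 4 were under an unadjusted p of 0.05, with 17 log2 fold changes below 0 and 10 above and a median of -0.01. That count was near the 13.3% over all genes. The groups did not overlap for 1 gene of this list, with Rbfox2-/- above, where 3.64% of all genes did not overlap on that side. Cabp4, a calcium-binding protein that shifts the activation of the photoreceptor channel, was at 231, 219.7, 218 and 209.7 CPM in controls and at 244, 251, 266 and 219 CPM in Rbfox2-/- retinas. M909 was the one Rbfox2-/- retina among the controls (log2 fold change 0.16, SE 0.058, adjusted p = 0.297). Stx3, the syntaxin of ribbon synapses, was at 791, 721, 745 and 731 CPM against 794, 825, 822 and 857 CPM, without overlap (log2 fold change 0.14, SE 0.043, adjusted p = 0.239). Cabp5, a calcium-binding protein of bipolar cells, was at 105, 96.8, 103 and 104 CPM against 91.3, 92.8, 98.7 and 87.7 CPM, with M902 above the lowest control (log2 fold change -0.14, SE 0.043, adjusted p = 0.239). DESeq2 called 1 gene of this list, Stx3, and the likelihood ratio test and limma-voom called 0.

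**Figure D5:**
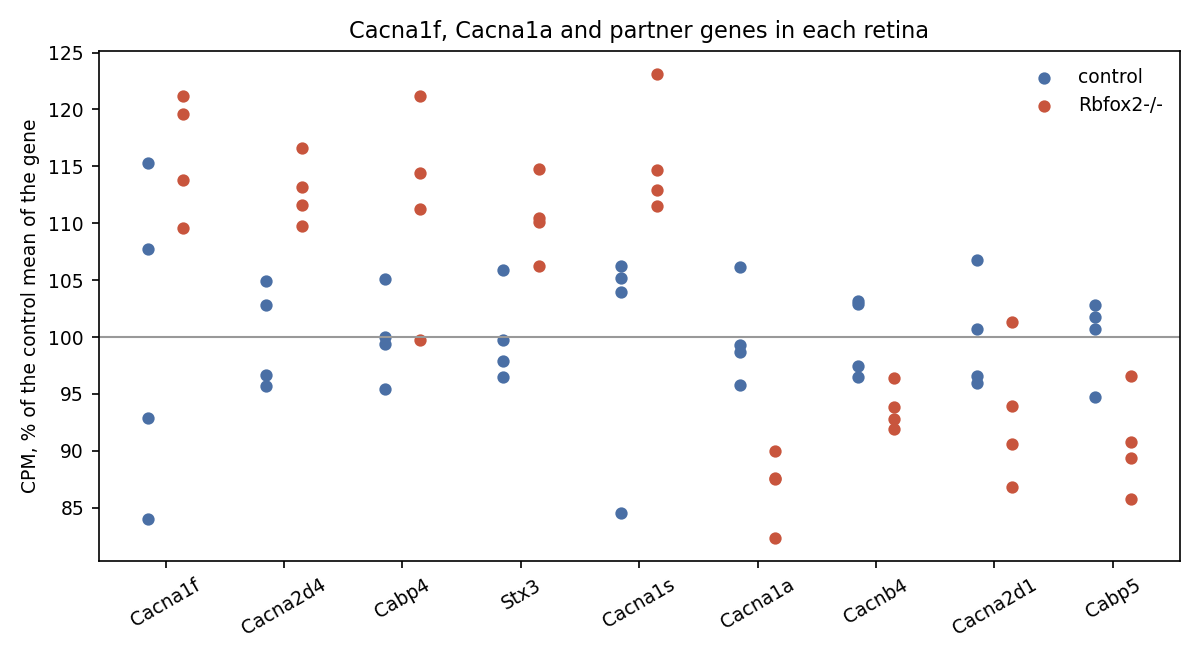
CPM in each retina as a percentage of the control mean of that gene, for Cacna1f and Cacna1a, the partner genes with the lowest p among auxiliary subunits and binding proteins, and Cacna1s (4 control and 4 Rbfox2-/- retinas, 1 point each). The Rbfox2-/- points of Cacna2d4, Stx3 and Cacna1s lie above the controls and those of Cacna1a and Cacnb4 below them, and the points of Cacna1f, Cabp4, Cacna2d1 and Cabp5 overlap.

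Of the 7 calcium pumps and exchangers that return calcium across the plasma membrane, 0 passed an FDR of 0.05 by edgeR's quasi-likelihood test and 0 had an unadjusted p under 0.05 (13.3% of all genes did). Their log2 fold changes were below 0 in 6 of 7 cases (49.3% of all genes), with a median of -0.07. Atp2b2, a calcium pump, was at 219 CPM in controls and 206 CPM in Rbfox2-/- retinas (log2 fold change -0.09, SE 0.044, adjusted p = 0.409). Slc8a2, a sodium-calcium exchanger, was at 32.1 and 29.98 CPM (log2 fold change -0.10, SE 0.055, adjusted p = 0.469), and the pump Atp2b3 at 62.9 and 59.3 CPM (log2 fold change -0.09, SE 0.075, adjusted p = 0.659). The groups overlapped for all 7, where 7.03% of all genes did not overlap, and DESeq2, the likelihood ratio test and limma-voom also called 0.

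The genes closest to Cacna1a in profile over the 8 retinas were Wwox, Psat1 and Jazf1, by the root mean square difference of log2 CPM centered on each gene, at 0.027, 0.041 and 0.044. Wwox was at 38.0 CPM in controls and 32.8 CPM in Rbfox2-/- retinas, a log2 fold change of -0.21 beside -0.20 for Cacna1a. For Cacna1f the closest were Ccdc163, Myo9b and Rbm45, at 0.044, 0.045 and 0.053. No member of the family was near either gene: Cacna1g, the closest to Cacna1a, ranked 1279th (0.098), and Cacna1h, the closest to Cacna1f, ranked 2475th (0.16). This measure covers differences between groups and between mice of a group alike.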

How the data were processed

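Whole-retina RNA of 8 mice was sequenced as poly(A)-selected libraries. Reads were aligned by the authors to mm10 with STAR and, where mapped to a unique place, counted over genes by HTSeq (versions not given in the sources used here; both a RefSeq and an Ensembl annotation are named). They deposited raw counts and FPKM values for 17500 genes. In the table every gene has 5 or more counts in 4 or more mice. The authors' fold changes, p-values and FDR, and 16 per-mouse columns of adjusted signal and log ratios, were not used. The FPKM values deposited by the authors imply 1 constant length per gene and were used only to compare levels between genes. The submitters' processing notes also name CASAVA 1.8.2 and edgeR.

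From the counts, filterByExpr of edgeR 4.0.16 (R 4.3.3, minimum count 10) kept 16797 genes. They were normalized by TMM and tested by the quasi-likelihood test of 4 Rbfox2-/- against 4 control mice without covariates, with Benjamini-Hochberg adjustment over all genes tested. Standard errors are the log2 fold change over the square root of F, and 95% intervals use the fit's degrees of freedom. Nothing says whether litters were shared, and the p-values measure the spread between these mice. All pairs of libraries differed by more than sampling noise. The procedure was also run on simulated counts, with changes larger than those of the alpha-1 genes here. That run therefore does not show how well changes of their size are found. A count of 3 corresponds to 0.0142 to 0.0187 CPM of the unnormalized totals, which covers counting error only.

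Other settings tried were edgeR's likelihood ratio test, DESeq2 1.42.0, limma-voom (limma 3.58.1), RLE and upper-quartile normalization, no filter, at least 10 counts in every mouse, leaving out each mouse, leaving out M901 and M902, and 1 surrogate variable (sva 3.50.0). Coordinates are from GENCODE M21 (GRCm38). Named besides the 9 genes are Rbfox2, Xist, Cacna1s, the 3 lowest p-values of each list, the 3 closest profiles to Cacna1a and Cacna1f, and, chosen after their values were seen, Cacnb2 and the overlapping genes. Marker genes, among them Gnat1 and Sag, were named after their values were seen. Some items are not reported here. The genes and lists were chosen with earlier results of these data known.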

Additional observations from a re-analysis of the deposited data

Results flagged for a closer look

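The control value of Cacna1s in M898, at 32.9 CPM, lay far below the other 3 controls (40.5 to 41.4 CPM), with a gap of 0.895 of the group's range to the nearest of them, above Dixon's 95% limit for 4 samples. It was the only such value among 20 groups of 4 mice examined, where chance gives about 1 in 20. M898 was also the lowest control for Cacna1b, Cacna1c, Cacna1d, Cacna1e, Cacna1f, Cacna1g, Cacna1h and Cacna1i.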

How the results depend on the processing

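The number of genes past an FDR of 0.05 was 11 and moved to 460 with DESeq2, 164 with the likelihood ratio test, 1 without M901 and M902 and 5 with 1 surrogate variable, and ranged from 5 to 35 when 1 mouse was left out (35 without the control M833, 19 without M894, 6 without M898, and 5 without the control M896 or without M893, M901 or M909). The number of alpha-1 genes past it was 0 and became 1, Cacna1a, with DESeq2 and with the likelihood ratio test (log2 fold change -0.20 in both), and was 0 in the other 15 alternatives. Cacna1e, at -0.05, ran from -0.14 without M909 to 0.013 without M893 when 1 mouse was left out, the last of which left 7 of 9 members below 0. In every other alternative 8 of 9 were below 0. The number of neighbouring pairs of levels that differed was 7 and became 0 in the 4 controls alone, where an exact permutation test cannot give less than p = 0.125. Over the fits without 1 mouse, log2 fold changes ran from 0.14 (without M898) to 0.29 (without M894) for Cacna1f, 0.14 (M898) to 0.24 (M833) for Cacna1s, -0.13 (M898) to -0.03 (M894) for Cacna1h, -0.07 (M898) to -0.01 (M894) for Cacna1g, -0.12 to -0.04 (M833) for Cacna1d, -0.08 (M898) to -0.03 (M833) for Cacna1c and -0.08 (M901) to -0.02 (M893) for Cacna1i. The cause of these shifts was not tested, apart from the fewer mice in some of them. No paired analysis was possible because the labels give no replicate numbers shared between the groups. The precision is limited by 4 mice per group and, for most of the alpha-1 genes, less by depth. Counts per gene cannot show differences in splicing.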
